A study of Homo sapiens with 9 samples.

Results

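Ribosome production was followed through 32 named genes, chosen by symbol, that code for subunits of RNA polymerase I, the factors that place it on ribosomal DNA and the proteins that turn its transcript into ribosomal subunits. Of these genes, 28 had a probe set of their own among the 19775 genes of the arrays, each read at the probe set with the highest mean signal over the 9 arrays. NOP56, DKC1 and BOP1 were listed only on probe sets shared with other symbols and GNL3 on none, so these 4 genes were not analysed here. The 28 genes had 61 probe sets in all, and 11 of them had only 1.

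RNA came from Jurkat cells, a line of human T lymphocytes from a leukaemia, 4 h after treatment. The 3 groups, of 3 samples each, were sham exposure, nanosecond electrical pulses (nsEP; 100 pulses, each lasting 10 ns, with a field of 150 kV/cm) and heat shock. All were cultures of the same line at 1200 cells per µl, labelled as biological replicates. Values are log2 signals, and a difference of 1 is a 2-fold change. The T lymphocyte identity of the line was clear on the arrays, since 16 of 16 measured marker genes of T lymphocytes lay in the brightest quartile of probe sets in sham. After heat shock 3 of the 16 were called lower, where 9.08% of the genes of the brightest quartile and 3.99% of all genes were. Of 6 B lymphocyte markers 1 was in that quartile in sham, and of 3 erythroid markers 0. Of 11 myeloid markers 0 were in that quartile, and 1 was called higher after heat shock. The summed myeloid signal was 553.5 to 588.7 in sham, 528 to 783.4 after nsEP and 769.2 to 971.2 after heat shock. The summed signal of 6 epithelial and fibroblast genes was 552.9 to 659.5 in sham and 2129 to 4989 after heat shock, most of it from COL1A1. Their part in the results below was not tested.

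The array of nsEP replicate 3 stood apart, at 172.6 on the second principal component against -62.6 to 30.6 for the other 8. The log2 signal of added poly-A control RNAs was higher after heat shock than in sham by 1.01 (mean of 12 probe sets), and these controls differed from array to array with an SD of 0.31 to 0.72 within groups. In bulk RNA, fewer cells of a kind and less RNA per cell cannot be told apart.

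RNA polymerase I transcribes a single kind of gene, the tandem repeats of ribosomal DNA, inside the nucleolus. Selectivity factor SL1 and the architectural protein UBTF mark the promoter, and RRN3 brings the polymerase to it. The long precursor is then methylated and pseudouridylated under the guidance of small nucleolar RNAs, cut, trimmed and packed with ribosomal proteins into the small and the large subunit. Growing lymphocytes invest heavily in this pathway, and the nucleolus is known to be sensitive to heat and other stresses.

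Promoter sequence from RefSeq (GRCh38.p14) was available for 24 of the 28 genes, as 300 bases that run from 250 bases before a start site to 50 after. The E-box CACGTG, the motif of MYC and its partners, was found on either strand in the promoters of 7 of the 24, namely FBL, GAR1, NOP10, NOP14, NOP2, PES1 and RRP9. Of all 27305 genes with such a promoter 8.78% held it. Of the 5 genes called lower after heat shock 0 held it. A pair of heat shock element units was searched in both arrangements. GAANNTTC was found for POLR1A and TAF1B (8.33% of the 24, against 8.21% of all genes) and TTCNNGAA for GAR1, NOP16, POLR1C and TAF1A (16.7%, against 9.46%). The TATA motif TATAAA was found for 0 of the 24, against 14.0% of all genes. The median share of G and C was 62% in the promoters of the 24 and 58.67% in all promoters. Its part in the motif shares was not tested. A match is a stretch of letters and not a measured binding site. The last 180 bases before the start site are shown for POLR1A and POLR1C, the heat shock element matches among the genes that fell after heat shock, and for NOP10, the gene with 2 E-boxes. Matches are in capitals, and sequences read 5′ to 3′ on the strand of the gene.
POLR1A, minus strand, chr2:86105887-86106066: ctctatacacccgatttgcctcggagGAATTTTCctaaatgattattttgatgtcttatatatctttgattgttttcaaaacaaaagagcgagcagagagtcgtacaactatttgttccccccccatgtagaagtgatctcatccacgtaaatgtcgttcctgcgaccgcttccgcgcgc
POLR1C, plus strand, chr6:43516909-43517088: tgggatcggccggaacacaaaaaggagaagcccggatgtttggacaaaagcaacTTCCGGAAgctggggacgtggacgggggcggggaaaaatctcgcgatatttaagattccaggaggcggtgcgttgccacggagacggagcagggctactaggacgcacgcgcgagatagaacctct
NOP10, minus strand, chr15:34343137-34343316: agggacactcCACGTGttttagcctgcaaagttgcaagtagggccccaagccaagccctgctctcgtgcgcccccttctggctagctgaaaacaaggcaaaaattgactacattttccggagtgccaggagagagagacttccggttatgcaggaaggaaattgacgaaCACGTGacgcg

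All 28 genes lay in the brightest quartile of probe sets, with sham means from 9.03 (TAF1B) to 14.84 (NPM1). Signals of different probe sets are not comparable as amounts of RNA, so each gene is set only against itself. Within groups the median SD of the 28 genes was 0.20 in sham, 0.31 after nsEP and 0.15 after heat shock (n = 3 each).

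**Figure D1:**
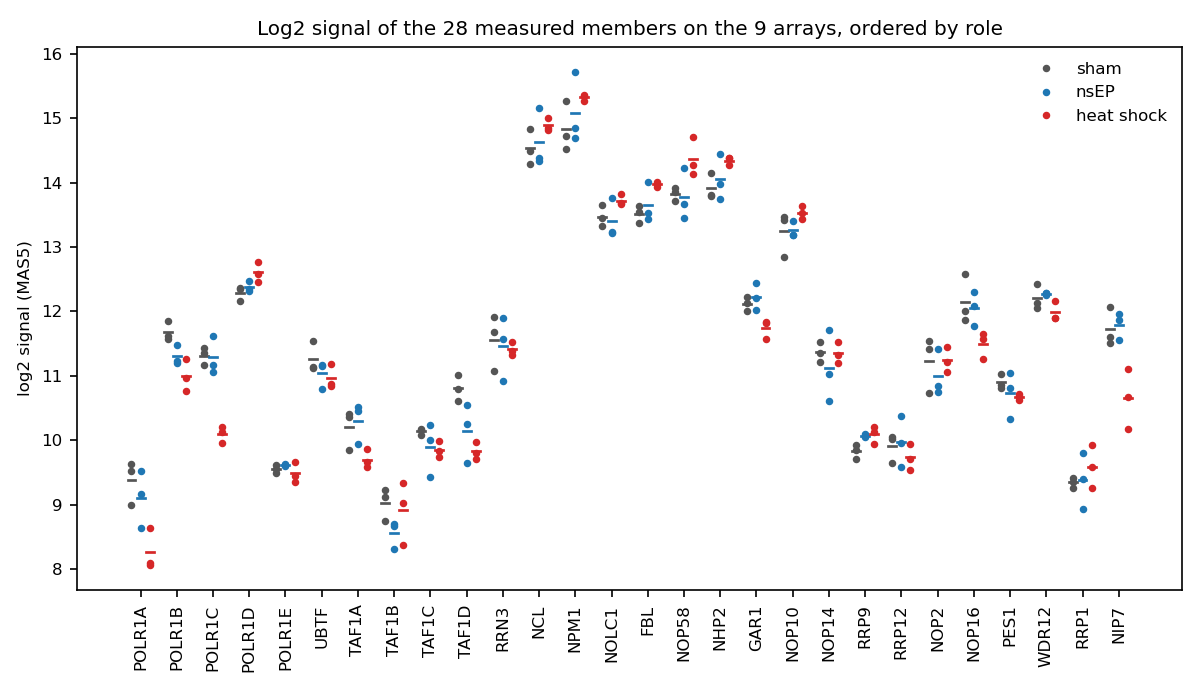
Log2 signal (vertical axis) of the 28 measured genes, ordered by role from RNA polymerase I subunits on the left to large subunit maturation on the right; each dot is 1 of the 9 arrays, and the lines give group means. POLR1C falls from a mean of 11.32 in sham to 10.10 after heat shock, while its nsEP mean is 11.29; heights of different genes are not comparable.

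The comparison of nsEP with sham asks whether the pulses altered the transcripts of this pathway. None passed: 0 of 28 genes were called in limma's moderated test over all probe sets (adjusted p under 0.05), where 0.0607% of all genes and 0.103% of those in the brightest quartile were called, and 2 had an unadjusted p under 0.05. The log2 ratios ran from -0.66 to 0.25, 14 above 0 and 14 below, with a median of -0.01 against -0.02 for all genes. Relative to all genes the median was 0.01. The split of signs rested on 1 array and on the scaling: without nsEP replicate 3 it was 8 above and 20 below, with a median of -0.18, and scaling to the poly-A controls gave 8 and 20 as well, with a median of -0.08. The SE of a single gene was 0.14 to 0.26.

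At the brightest probe set of each gene, the lowest ratio after nsEP was that of TAF1D, a subunit of SL1. It was at 10.61, 11.01 and 10.80 in sham and at 10.25, 10.55 and 9.64 after nsEP. The groups did not overlap, and the log2 ratio was -0.66 ± 0.22 (SE, n = 3 against 3, adjusted p = 0.53 by limma). TAF1B, another SL1 subunit, had -0.47 ± 0.25 (adjusted p = 0.774), also without overlap, although its second probe set had 0.32. TAF1A, also of SL1, had 0.09 ± 0.20 (adjusted p = 0.972), with overlap. POLR1B, the second largest subunit of the polymerase, had -0.37 ± 0.16 (adjusted p = 0.680). Its 4 probe sets were all below 0, from -0.97 to -0.04. TAF1C, also of SL1, had -0.25 ± 0.20 (adjusted p = 0.874), with overlap. A dimmer probe set of TAF1C had -1.68 ± 0.55 (adjusted p = 0.535), without overlap. Further probe sets lay apart in the lower direction for POLR1B (-0.97) and RRP12 (-0.59 ± 0.28, adjusted p = 0.733). In the higher direction this held for further probe sets of POLR1D (0.48 ± 0.17, adjusted p = 0.567), NOLC1 (0.32 ± 0.15, 0.714) and POLR1A (0.30 ± 0.28, 0.907). Of the 61 probe sets 0 were called after nsEP. At the brightest probe sets, groups did not overlap for 3 genes in the lower direction, TAF1D, TAF1B and POLR1B. In the higher direction this held for 1, RRP9, a protein of the U3 particle, at 0.24 ± 0.15 (adjusted p = 0.817). Among all genes 5.41% lay apart in the lower and 4.56% in the higher direction, and among those of the brightest quartile 5.65% and 4.28%. Without nsEP replicate 3 the count of called genes was again 0.

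The comparison of heat shock with sham asks how the transcripts of the pathway stood after a different stress. Of the 28 genes 5 fell and 0 rose, a share of 17.9% lower. Among all genes 3.99% were lower and 1.72% higher (limma, adjusted p under 0.05), and among the genes of the brightest quartile, to which all 28 belong, 9.08% were lower and 1.77% higher. The genes that fell were POLR1A, POLR1B, POLR1C, TAF1D and NIP7. The median log2 ratio of the 28 genes was -0.13, which is -0.27 relative to the median of all genes (0.14) and -0.08 relative to that of the brightest quartile (-0.05). Ratios ran from -1.22 to 0.54, with 11 above 0 and 17 below.

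**Figure D2:**
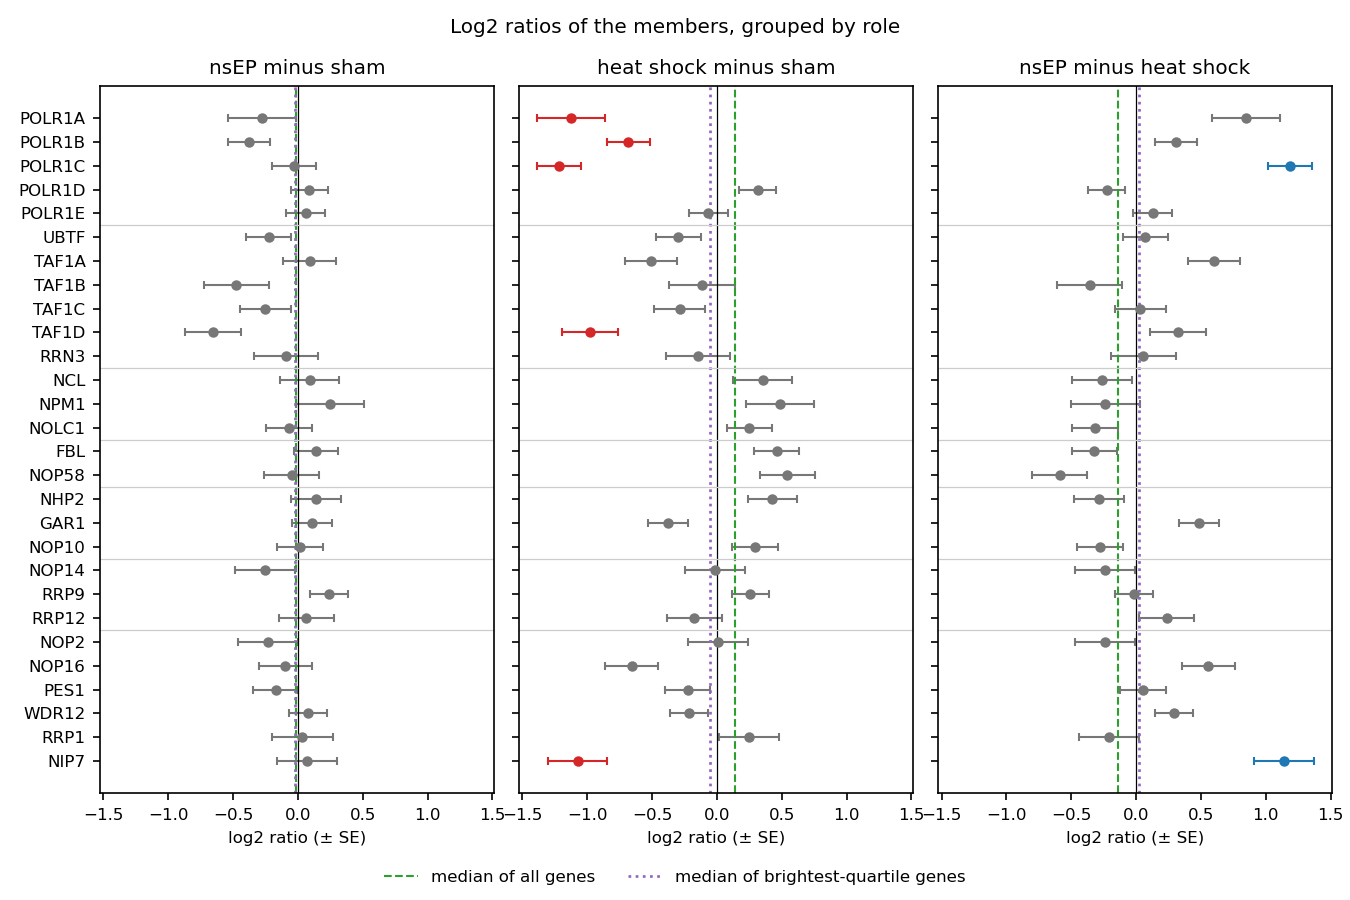
Log2 ratio with its SE (horizontal axis) of each gene in nsEP minus sham, heat shock minus sham and nsEP minus heat shock, with roles parted by grey lines; red is called lower, blue called higher and grey not called, the dashed line is the median of all genes and the dotted line that of the brightest quartile. All 28 genes are grey after nsEP, and after heat shock the 5 red points lie between -1.22 and -0.68.

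The polymerase subunits held 3 of the 5 falls. POLR1C, a subunit that RNA polymerase I shares with RNA polymerase III, was at 11.43, 11.16 and 11.35 in sham and at 10.13, 9.96 and 10.21 after heat shock. Every heat shocked array lay below every sham array. The log2 ratio was -1.22 ± 0.17 (SE, n = 3 against 3), a 2.32-fold fall with an adjusted p of 0.00149 by limma. The second probe set of POLR1C was called as well, going from 10.14, 10.39 and 10.52 to 8.44, 8.95 and 8.85, a log2 ratio of -1.60 ± 0.21 (adjusted p = 0.000965). POLR1C was the 1 gene still called when any 1 of the 6 arrays of the comparison was left out (adjusted p = 0.00538 to 0.0100).

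POLR1A codes for the largest, catalytic subunit. It was at 8.99, 9.53 and 9.64 in sham and at 8.06, 8.09 and 8.63 after heat shock, again without overlap. The log2 ratio was -1.12 ± 0.26, a 2.18-fold fall (adjusted p = 0.0321). Its other 2 probe sets, both dimmer, had -0.35 and 0.14 and were not called. The call ended without heat shock replicate 1, heat shock replicate 2, sham replicate 2 or sham replicate 3 (adjusted p = 0.0314 to 0.123 over the 6 arrays left out). POLR1B, which forms the active centre with POLR1A, went from 11.62, 11.85 and 11.57 to 10.96, 10.77 and 11.26. The groups lay apart, and the log2 ratio was -0.68 ± 0.16, 1.61-fold (adjusted p = 0.0349). Of its 3 other probe sets 2 were also below 0 (-0.32 and -0.42) and 1 was above, at 0.58, with 0 called. This call ended without any of the arrays except heat shock replicate 3 (0.0338 to 0.144). It also ended under 5 of 10 other ways of processing (adjusted p = 0.0111 to 0.423 over the 10), among them quantile normalization (0.0527).

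POLR1D, the partner of POLR1C in both polymerases, did not fall with it. It was at 12.35, 12.36 and 12.17 in sham and at 12.77, 12.46 and 12.59 after heat shock, all above sham. Its log2 ratio was 0.31 ± 0.14 (adjusted p = 0.263), and of its 2 further probe sets 1 was called higher, with 0.66 ± 0.17 (adjusted p = 0.0451). With arrays scaled to the poly-A controls POLR1D had -0.70. POLR1E, which helps the polymerase to bind initiation factors, had -0.07 ± 0.15 (adjusted p = 0.860).

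**Figure D3:**
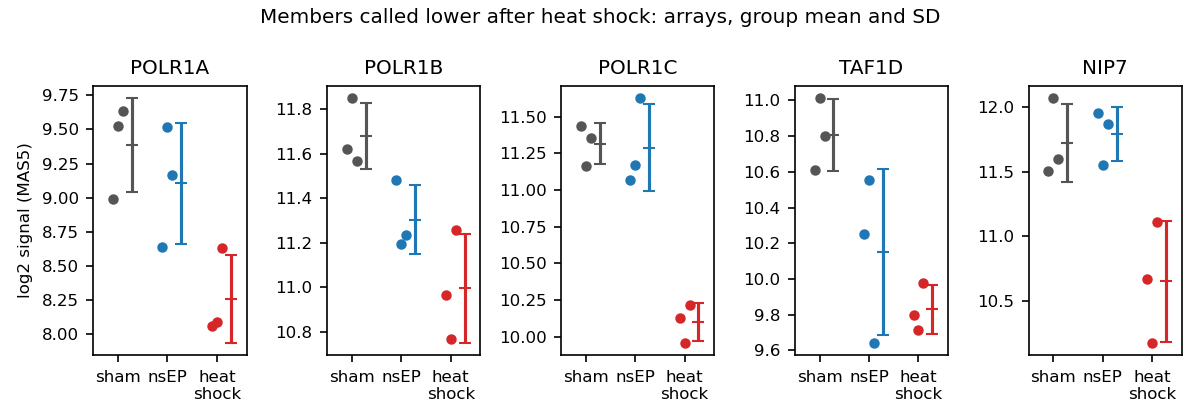
Log2 signal (vertical axis, a scale of its own for each gene) of the 5 genes called lower after heat shock, on each array of the 3 groups; a dot is 1 array, and the bar beside them gives the mean and SD of the group (n = 3). In each panel the 3 heat shocked arrays lie below the 3 sham arrays, and for POLR1A, POLR1C and NIP7 also below the 3 nsEP arrays.

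The 6 initiation factors all had ratios below 0 after heat shock, from -0.98 to -0.12, and 1 of them fell. TAF1D went from 10.61, 11.01 and 10.80 in sham to 9.80, 9.71 and 9.98, with a log2 ratio of -0.98 ± 0.22, 1.97-fold (adjusted p = 0.0237). All 3 arrays lay below sham. The call ended when heat shock replicate 1, 2 or 3 or sham replicate 2 or 3 was left out (0.0426 to 0.107). TAF1A, a further SL1 subunit, was at 9.85, 10.41 and 10.37 in sham and at 9.58, 9.66 and 9.86 after heat shock, which overlap, and its ratio was -0.51 ± 0.20 (adjusted p = 0.202). UBTF had -0.30 ± 0.17 (adjusted p = 0.397) and RRN3 -0.15 ± 0.25 (0.805). A dimmer probe set of UBTF was called lower with -1.56 ± 0.35 (adjusted p = 0.0243), while its other 4 probe sets were not. RRN3 has near-identical copies in the genome, and its probe set may read them too.

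The abundant proteins of the nucleolus had values on the other side of 0, and 0 passed. NPM1, a histone and ribosome chaperone, was at 14.73, 14.52 and 15.26 in sham and at 15.35, 15.36 and 15.26 after heat shock. Its log2 ratio was 0.48 ± 0.26 (adjusted p = 0.364), and its other 2 probe sets had 0.46 and 0.50. NPM1 has many processed copies in the genome, which these probe sets may read as well. NCL, a nucleolar RNA binding protein, had 0.35 ± 0.23 (0.453). Its dimmer probe set had 1.08 ± 0.29, above sham on every array and not called (adjusted p = 0.0587). NOLC1, a chaperone of small nucleolar ribonucleoproteins, had 0.25 ± 0.18 (0.493). Relative to all genes the median of these 3 was 0.22.

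The proteins that modify ribosomal RNA were mixed. FBL, the methyltransferase of the box C/D particles, was at 13.54, 13.37 and 13.64 in sham and at 13.97, 13.94 and 14.01 after heat shock. NOP58, a core protein of the same particles, was at 13.92, 13.86 and 13.71 and then at 14.28, 14.13 and 14.70. Both lay above sham on every array, with log2 ratios of 0.46 ± 0.17 for FBL (adjusted p = 0.174) and 0.54 ± 0.21 for NOP58 (adjusted p = 0.196). Of the box H/ACA proteins, which carry out pseudouridylation, NHP2 had 0.43 ± 0.19 (adjusted p = 0.260) and NOP10 0.29 ± 0.18 (0.417). GAR1, bound to the same particle, was at 12.00, 12.13 and 12.22 in sham and at 11.84, 11.57 and 11.82 after heat shock, all below sham, with a ratio of -0.38 ± 0.15 (adjusted p = 0.215). These signs depend on the scaling: 11 of the 28 genes had ratios above 0 with the deposited scaling, 10 with arrays centred on the median gene, 12 after quantile normalization and 0 with scaling to the poly-A controls. The last moved the median of all genes from 0.14 to -0.87 and that of the 28 genes to -1.14. It shifts every ratio by the same amount, so the value relative to all genes, -0.27, cannot change under it.

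Among the 6 factors of large subunit maturation NIP7, which acts in the processing of precursor rRNA and in late steps of subunit assembly, fell. It was at 11.51, 12.07 and 11.60 in sham and at 10.67, 10.17 and 11.11 after heat shock. The arrays did not overlap, and the log2 ratio was -1.08 ± 0.23, 2.11-fold (adjusted p = 0.0206). The second probe set of NIP7 was called as well, with -0.99 ± 0.19 (adjusted p = 0.0105). At the first, the call ended without heat shock replicate 1 or 2 or sham replicate 2 or 3 (0.0124 to 0.0962). NOP16, a nucleolar protein of the large subunit precursor, went from 12.01, 11.87 and 12.57 to 11.66, 11.26 and 11.57. The groups lay apart, with a ratio of -0.66 ± 0.20 that missed the threshold (adjusted p = 0.10) and passed it with centred arrays (-0.86, adjusted p = 0.0292) and with poly-A scaling (-1.67, 0.0243). PES1 and WDR12, partners in the complex that processes the large subunit precursor, had -0.23 ± 0.18 (adjusted p = 0.539) and -0.22 ± 0.15 (0.473). NOP2, an rRNA methyltransferase, was at 0.01 ± 0.23 (adjusted p = 0.990).

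The 3 factors of small subunit maturation had ratios from -0.17 to 0.26 and 0 were called. RRP9 was at 9.71, 9.93 and 9.85 in sham and at 9.95, 10.12 and 10.20 after heat shock, which did not overlap, with 0.26 ± 0.15 (adjusted p = 0.382). RRP12, an export factor, had -0.17 ± 0.21 (0.719) at its brightest probe set. Dimmer probe sets listed under the same gene moved otherwise. One went from 7.50, 7.11 and 6.15 in sham to 8.76, 8.95 and 9.33 after heat shock, a log2 ratio of 2.10 ± 0.34 (adjusted p = 0.00405), and a second had 1.58 ± 0.28 (adjusted p = 0.00692). Both were called higher, and which transcripts they read was not tested.

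In all, 11 of the 61 probe sets were called after heat shock, 3 higher and 8 lower, where 1.81% of all probe sets were higher and 2.36% lower. The 3 higher ones were those of RRP12 and POLR1D named above. The 61 are mostly bright: each gene's brightest probe set lay in the brightest quartile, and 20 of the 33 others lay below it. Among genes of that quartile 1.77% were called higher and 9.08% lower. Of 15 genes with more than 1 probe set above the median signal of all probe sets, these probe sets had the same sign for 11 in heat shock minus sham and for 4 in nsEP minus sham. Of the 28 genes 9 lay apart from sham in the lower and 7 in the higher direction after heat shock, that is on every array, against 27.2% and 17.0% of the genes of the brightest quartile and 13.7% and 17.5% of all genes.

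**Figure D4:**
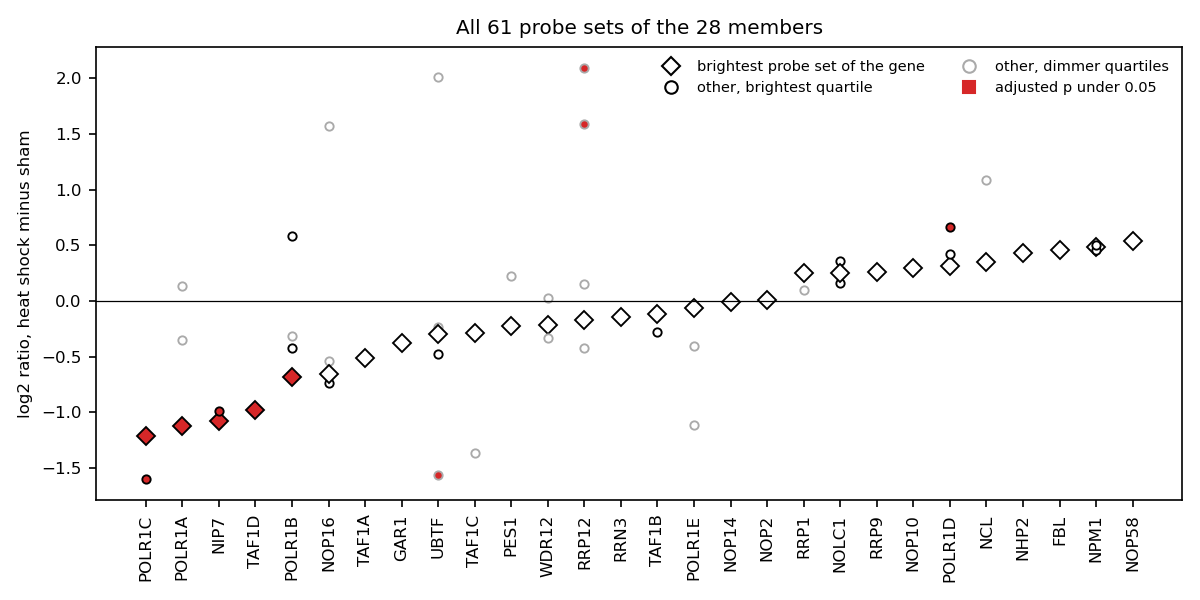
Log2 ratio in heat shock minus sham (vertical axis) at each of the 61 probe sets of the 28 genes, ordered by the ratio at the brightest probe set, which is a diamond; circles are other probe sets, with a grey edge where they lie outside the brightest quartile, and red is an adjusted p under 0.05. Both probe sets of POLR1C and of NIP7 are red and below 0, while those of RRP12 reach from -0.42 to 2.10.

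The comparison of nsEP with heat shock sets both treatments side by side, and shares its arrays with the comparisons above. POLR1C was at 11.07, 11.17 and 11.63 after nsEP, all above the heat shocked arrays, a log2 ratio of 1.19 ± 0.17 (adjusted p = 0.00161 by limma). NIP7 was at 11.96, 11.55 and 11.87 after nsEP, also above, with 1.14 ± 0.23 (adjusted p = 0.0130). These 2 of 28 genes, 7.14%, were called higher after nsEP and 0 lower, against 3.83% higher and 2.16% lower of all genes and 8.64% and 2.29% of the brightest quartile. Both calls held when any 1 of the 6 arrays was left out (adjusted p up to 0.0102 for POLR1C and 0.0496 for NIP7). POLR1A had 0.85 ± 0.26 (adjusted p = 0.0924), GAR1 0.49 ± 0.15 (0.0965) and TAF1A 0.60 ± 0.20 (0.122). For TAF1D, which was called after heat shock and not after nsEP, the difference was 0.32 ± 0.22 (adjusted p = 0.465), and for POLR1B it was 0.31 ± 0.16 (0.338), so these were not shown to differ between the treatments. Over the 61 probe sets the calls were even, 4 higher and 4 lower after nsEP, where 2.31% of all probe sets were higher and 2.65% lower. The lower ones were a further probe set of POLR1B, with -1.55 ± 0.25 (adjusted p = 0.00312), both dimmer probe sets of RRP12 described above, with -2.67 ± 0.34 (0.000749) and -2.17 ± 0.28 (0.000813), and 1 of NCL, with -1.11 ± 0.29 (0.0481). The higher ones besides the 2 named first were the second of POLR1C, with 1.84 ± 0.21 (adjusted p = 0.000382), and 1 of UBTF, with 1.46 ± 0.35 (0.0302). Without nsEP replicate 3, which stood apart, 4 genes were called in place of 2, with TAF1A higher (0.78, adjusted p = 0.0317) and NOP58 lower (-0.81, adjusted p = 0.0207) in addition. Without nsEP replicate 1 POLR1A was called too (1.08, adjusted p = 0.0432).

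The product of the pathway was also on the arrays. Both probe sets of RNA45SN5, a gene of the rRNA precursor, were higher after heat shock. The first was at 9.30, 9.69 and 9.41 in sham, at 11.11, 10.93 and 11.17 after nsEP and at 12.77, 12.92 and 12.53 after heat shock. The second was at 9.37, 9.86 and 9.63, at 10.70, 10.54 and 10.71 and at 13.11, 12.91 and 12.70. The 3 groups were apart from one another at both. In heat shock minus sham the log2 ratios were 3.27 ± 0.16 and 3.29 ± 0.17, that is 9.67-fold and 9.79-fold (adjusted p = 1.69e-07 and 2.22e-07). In nsEP minus sham the first had 1.60 ± 0.16, that is 3.03-fold, and passed (adjusted p = 0.00117 by limma). The second had 1.03 ± 0.17 and missed the threshold (adjusted p = 0.0554). In nsEP minus heat shock both were called lower, with -1.67 ± 0.16 and -2.26 ± 0.17 (adjusted p = 0.000102 and 1.37e-05).

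Control probe sets for mature rRNA, which entered no test, differed along the molecule. At the 5 prime end of 28S rRNA the mean was 12.54 ± 0.08 in sham, 14.24 ± 0.11 after nsEP and 15.51 ± 0.10 after heat shock (SD, n = 3). Its middle was higher by 0.74 after nsEP and by 1.17 after heat shock. At its 3 prime end nsEP minus sham was -0.51, with overlap, and heat shock minus sham 1.96. For 18S rRNA nsEP and sham overlapped at the 3 parts. After heat shock its middle and 3 prime end lay above sham, by 1.13 and 1.55, and its 5 prime end overlapped (0.60). The probe sets of RNA45SN5 were not shown to separate precursor from mature rRNA. The values rest on arrays made for polyadenylated RNA, and the difference between the 3 prime and 5 prime ends of GAPDH was -0.05 to 0.26 in sham, -0.22 to 0.56 after nsEP and -0.06 to -0.01 after heat shock. After nsEP the highest was replicate 3, the array that stood apart, against -0.22 and -0.11. For ACTB replicate 3 of nsEP was at 1.24 against 0.31 and 0.37. Sham was at 1.26, 0.58 and 0.52 and heat shock at 0.62 to 0.79. Whether priming or RNA integrity had a part in the rRNA signal was not tested.

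Further genes of the pathway, 140 in 5 lists, were read in the same way, and 133 had a probe set of their own. After nsEP 0 of the 133 were called and their median log2 ratio was -0.02, as for all genes. After heat shock 15 were lower and 0 higher, 11.3% of the 133, where 3.99% of all genes and 9.08% of those in the brightest quartile were lower. The median was -0.05 against 0.14 for all genes and -0.05 for the brightest quartile, which held 127 of them.

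The small subunit processome and 40S assembly had 8 of 49 genes lower after heat shock, 16.3% against 9.08% of the brightest quartile, with a median of -0.15. UTP25, a processome protein, fell by 1.18 on the log2 scale (SE 0.15, adjusted p = 0.000958) and UTP23, which acts in early cleavages, fell by 1.14 (SE 0.25, 0.0238). MPHOSPH10 and NOL11, further processome proteins, had -1.05 ± 0.15 (adjusted p = 0.00187) and -1.0 ± 0.14 (0.00149). The calls on UTP25, MPHOSPH10 and NOL11 held when any 1 array was left out, and that on UTP23 in 1 of 6 cases.

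Of the genes for rRNA trimming 3 of 15 were called lower, 20.0% against 9.08% of the brightest quartile. EXOSC6, a subunit of the exosome ring, had -1.34 ± 0.17 (adjusted p = 0.000777) and held without any 1 array. ISG20L2, an exonuclease of the nucleolus, had -0.98 ± 0.19 (0.0126) and C1D, an exosome cofactor, -0.70 ± 0.15 (0.0220). In 60S assembly and export 2 of 42 were called lower, a share of 4.76% that is below the 9.08% of the brightest quartile, namely NOC3L at -0.78 ± 0.16 (adjusted p = 0.0131) and MAK16 at -0.64 ± 0.14 (0.0228), both assembly factors. These last 4 calls ended for 2 or more of the 6 arrays left out.

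The 13 further genes of RNA polymerase I, which include the subunits it shares with the other polymerases, had 0 calls and a median of 0.10 after heat shock. The smallest p-values were those of POLR1H, a small subunit, at 0.39 ± 0.15 (adjusted p = 0.171), and POLR2E, a shared subunit, at 0.51 ± 0.22 (0.245). Among 14 regulators of rRNA synthesis 2 were called lower, 14.3% against 3.99% of all genes and 9.08% of the brightest quartile. MDM2, the ligase that holds p53 down and is bound by free ribosomal proteins, had -0.94 ± 0.16 (adjusted p = 0.005), and RPS6KB1, a growth kinase under mTOR, -0.63 ± 0.14 (0.0289). The call on MDM2 held without any 1 array and that on RPS6KB1 in 1 of 6 cases. MYC, the factor that drives transcription of many of these genes, had 0.05 ± 0.19 in nsEP minus sham (adjusted p = 0.986) and -0.63 ± 0.19 in heat shock minus sham (0.0989).

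After nsEP the smallest p-values in the lists belonged to NLE1, a 60S assembly factor, at 0.45 ± 0.18 (adjusted p = 0.634), and EIF6, which keeps the large subunit from joining too early, at 0.37 ± 0.16 (0.657). In the small subunit list they were those of UTP20 at -0.33 ± 0.17 (adjusted p = 0.749) and DHX37 at -0.44 ± 0.23 (0.771). EXOSC5 and ISG20L2 had 0.34 ± 0.17 (adjusted p = 0.753) and -0.33 ± 0.19 (0.807), MXD1 and RB1 0.36 ± 0.24 (0.844) and -0.30 ± 0.22 (0.854), and POLR1H and MYBBP1A 0.27 ± 0.15 (0.777) and -0.30 ± 0.24 (0.886).

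**Figure D5:**
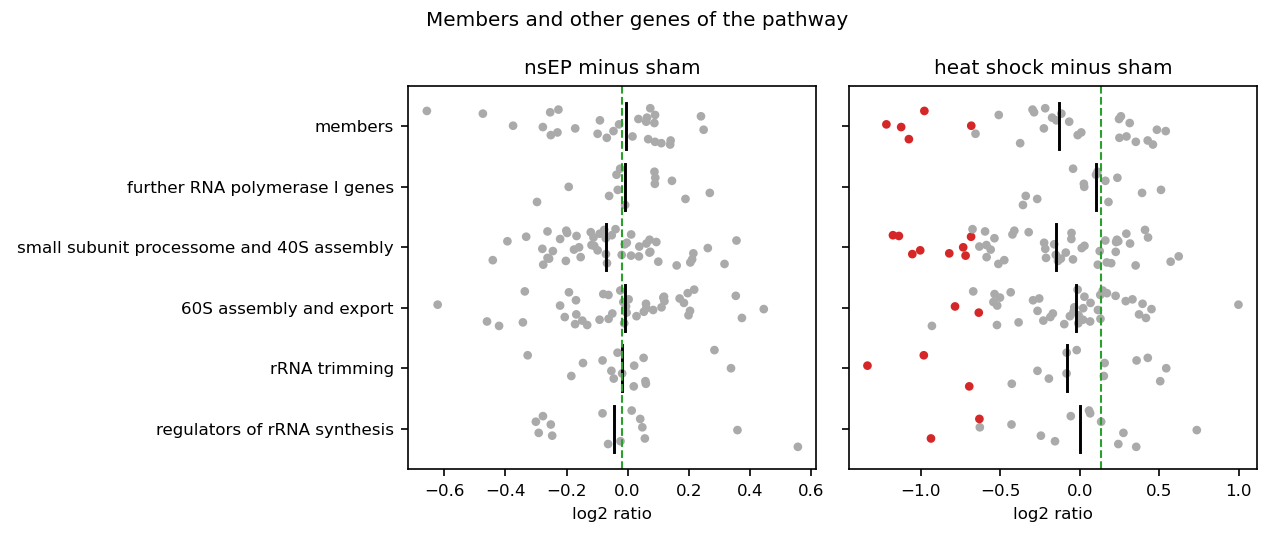
Log2 ratio (horizontal axis) of the 28 genes and of the 133 further genes in 5 lists, for nsEP minus sham and heat shock minus sham; dots are genes, red where the adjusted p is under 0.05, black bars are list medians and the dashed line is the median of all genes. After nsEP no dot is red, and after heat shock every red dot lies below 0.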

How the data were processed

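The authors deposited log2 values of MAS5 signals (submitters' processing notes, which give no version) from 9 Affymetrix arrays, 3 per group. Turned back to signals, the mean without the lowest and highest 2% was 499.9 to 500.6 on each array. Of 54675 probe sets 62 controls were set aside and 54613 tested. A gene was read at its brightest probe set with 1 symbol (41091 probe sets, 19775 genes). A single model of the 9 arrays was fitted in R 4.3.3 with limma 3.58.1 (1 mean per group, variance trend, two-sided moderated tests, Benjamini-Hochberg over all probe sets, threshold 0.05), checked on simulated arrays. Relative values subtract the median log2 ratio of all genes. The number of arrays limits the precision, and depth does not apply.

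Groups came from the sample titles. The genes, gene lists, markers and motifs were chosen with earlier results of these data known. Values are given per array for called genes and for the 1 or 2 others with the smallest p in a role. In the further lists up to 4 called genes, or the 2 with the smallest p, and MYC and RNA45SN5 are named. Figures used matplotlib 3.10.9 in Python 3.11.15. Alternatives covered scaling, filtering, the test, the probe sets used and each array.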

Additional observations from a re-analysis of the deposited data

How the results depend on the processing

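In nsEP minus sham the count of called genes was 0 under all 10 alternatives and without any 1 of the 9 arrays. In heat shock minus sham the 5 called genes became 1 without the variance trend, 0 with the methods' t-test, adjusted by Benjamini-Hochberg (12 at an unadjusted p under 0.05), and 1 to 5 when 1 array was left out, 1 without sham replicate 2 or 3 or heat shock replicate 1 or 2. With the mean of all probe sets of a gene the count was again 5, but with POLR1D (0.47) and NCL (0.72) higher and without POLR1A (-0.45, adjusted p = 0.183) and POLR1B (-0.21, 0.423). In nsEP minus heat shock the count of 2 became 5 with arrays centred on the median of all genes, 1 without the variance trend, 0 with the t-test (7 at an unadjusted p under 0.05), and 2 to 4 with 1 array left out. The median relative to all genes moved from -0.27 to -0.0778 in heat shock minus sham against genes of the same signal quartile and to -0.0789 under quantile normalization, and ranged from -0.31 to -0.16 with 1 array left out. In nsEP minus heat shock it moved from 0.19 to 0.0191 against the same quartile, to -0.0127 under quantile normalization and to 0.0183 with the mean of probe sets (0.08 to 0.19 with 1 array left out). In nsEP minus sham it was -0.12 to 0.0359 with 1 array left out, the lowest without nsEP replicate 3. The cause of these shifts was not tested. The main model did not pair samples by replicate number. Correlations of same-numbered deviations were -0.05 to 0.17 for nsEP and sham and -0.16 to 0.13 for heat shock and sham. For nsEP and heat shock they were -0.05 to 0.21. Number 2 was over 0.1 in each, and numbers 1 and 3 were under it. So few correlations cannot decide whether same-numbered samples share a batch. With the replicate number as a block 4 genes were called in heat shock minus sham (POLR1B at adjusted p = 0.0504), 3 in nsEP minus heat shock (POLR1A added) and 0 in nsEP minus sham.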
